A study of Homo sapiens with 6 samples.

Results

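The genes of the basement membrane were compared between tumors of human lung squamous carcinoma cells with and without a gene fusion. Of 35 genes chosen by name for this structure (collagens, laminin chains and the proteins that link them), 32 had a probe set that named that gene and no other, out of 18132 genes with such a probe set. LAMA3, COL17A1 and DAG1 were not analysed here. Where a gene had several probe sets, the one brightest on average across all 6 arrays stood for it, so the mean levels given below were used for the choice and are a description. The genes were proposed with earlier results of these data known.

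One group of 3 tumors grew from CRL-5889 cells transfected with the TRA2B-DNAH5 fusion, and the other 3 from the same line given vector. CRL-5889 is an established cell line, and all 6 tumors grew in nude mice, which lack a normal thymus, for 4 weeks. The labels name the 3 tumors of a group biological replicates. They do not give the promoter that drives the fusion, whether the transfected cells were a clone or a pool, or which mouse bore which tumor, so p-values measure spread between these tumors, and the fusion and other differences between the transfected populations cannot be told apart. Total RNA was biotin labelled and hybridised to human Affymetrix arrays. RNA of mouse stroma that binds human probes was not told apart from tumor cell RNA. In such bulk tissue, fewer cells of a type and less RNA per cell cannot be told apart.

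A basement membrane is the thin sheet of matrix under epithelia and around vessels, muscle fibres and fat cells. Laminin trimers of an alpha, a beta and a gamma chain form a network at the cell surface, collagen IV trimers form another one beside it, and nidogens, perlecan and agrin connect them. Carcinoma cells make many of these proteins themselves, and tumors break down and rebuild the sheet where they invade.

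Values are log2 probe set levels, on which a difference of 1 is a doubling. A probe set with a mean below a log2 level of 4.94, the 30th percentile of all probe sets, was treated as dim and left out of the test. That left 25 of the 32 members and 13694 genes in all. NTN4, at 4.94, was the member just inside this limit and NID2, at 4.12, the one just outside. The 7 members below it, COL4A3, COL4A4, LAMA1, NID2, COL15A1, SMOC2 and FRAS1, had means from 3.43 to 4.12.

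Arrays correlated pairwise at 0.989 to 0.997 (Pearson's r over probe sets). The principal component with 42.4% of the variance set off vector tumor 1, which also had the lowest array median (6.27, against 6.34 to 6.39 in the other 5). KRT5, a basal keratin, had a mean of 5.12 and KRT14 one of 5.70, and the desmosomal cadherins DSG3 (4.63) and DSC3 (3.89) were below the limit. SOX2, a lineage transcription factor, had a mean of 9.24 and a log2 fold change (fusion minus vector) of -0.83 (limma unadjusted p = 0.00240, adjusted p = 0.369). It was the 1 squamous marker of 6 tested with an unadjusted p below 0.05, against 5.89% of all genes tested. Of 13 squamous markers listed, 8 were analysed, and their average level was 5.60 to 5.66 in fusion tumors and 5.69 to 5.84 in vector tumors. Without SOX2, a choice made after its value was seen, the average of the other 7 was 5.12 to 5.23 in both groups. For 7 lung glandular markers it was 6.31 to 6.44 in fusion tumors and 6.32 to 6.51 in vector tumors.

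The promoters of 5 of the 6 genes that the results turn on are shown here from RefSeq (build GRCh38.p14), because COL4A1 and COL4A2 share part of theirs. The promoter of the other one, LAMC3, was not used here. COL4A1 and COL4A2 lie head to head on chromosome 13 with transcription starts 127 bases apart, so 226 of the 300 bases in their windows are the same stretch read on opposite strands. Each window runs from 250 bases before to 50 bases after the start, 5′ to 3′. Capitals mark the GC box GGGCGG, the CCAAT box CCAAT, the TATA box TATAAA and the AP-1 site TGANTCA on either strand. Neighbouring matches can run together, as GC boxes do in PXDN.
COL4A1 promoter, chr13:110307108-110307407, - strand: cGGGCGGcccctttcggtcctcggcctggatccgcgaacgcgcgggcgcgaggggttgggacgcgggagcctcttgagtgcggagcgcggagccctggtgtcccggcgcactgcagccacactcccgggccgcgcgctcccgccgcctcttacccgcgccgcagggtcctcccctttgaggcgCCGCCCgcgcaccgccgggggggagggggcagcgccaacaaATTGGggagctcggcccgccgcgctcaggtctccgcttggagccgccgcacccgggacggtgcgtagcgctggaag
COL4A2 promoter, chr13:110307034-110307333, + strand: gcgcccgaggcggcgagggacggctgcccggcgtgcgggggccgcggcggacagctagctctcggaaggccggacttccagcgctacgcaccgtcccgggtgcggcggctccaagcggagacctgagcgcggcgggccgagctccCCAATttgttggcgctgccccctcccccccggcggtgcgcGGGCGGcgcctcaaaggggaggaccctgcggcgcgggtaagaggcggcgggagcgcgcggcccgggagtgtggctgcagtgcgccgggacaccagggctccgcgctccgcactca
PXDN promoter, chr2:1744466-1744765, - strand: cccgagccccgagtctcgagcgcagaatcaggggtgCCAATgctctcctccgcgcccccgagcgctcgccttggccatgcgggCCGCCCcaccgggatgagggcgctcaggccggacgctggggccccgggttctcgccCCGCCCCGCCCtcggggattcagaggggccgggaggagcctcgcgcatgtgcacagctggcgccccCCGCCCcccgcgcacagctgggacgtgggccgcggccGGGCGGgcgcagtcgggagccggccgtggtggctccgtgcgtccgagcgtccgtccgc
NID1 promoter, chr1:236065041-236065340, - strand: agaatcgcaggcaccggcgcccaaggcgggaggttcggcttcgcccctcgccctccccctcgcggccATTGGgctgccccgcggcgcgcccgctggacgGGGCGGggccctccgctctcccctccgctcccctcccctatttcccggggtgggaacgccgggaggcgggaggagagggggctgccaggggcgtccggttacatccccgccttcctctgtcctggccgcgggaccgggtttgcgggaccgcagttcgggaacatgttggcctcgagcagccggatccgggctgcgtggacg
LAMA4 promoter, chr6:112254518-112254817, - strand: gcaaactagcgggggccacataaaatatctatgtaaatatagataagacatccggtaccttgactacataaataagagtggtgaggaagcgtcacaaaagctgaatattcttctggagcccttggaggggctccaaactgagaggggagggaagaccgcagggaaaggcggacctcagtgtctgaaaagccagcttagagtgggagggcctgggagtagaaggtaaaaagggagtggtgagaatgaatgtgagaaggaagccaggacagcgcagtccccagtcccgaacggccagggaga

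The windows of COL4A1, COL4A2, PXDN and NID1 each held a CCAAT box and at least 1 GC box, with 2, 1, 5 and 1 GC boxes in that order. The LAMA4 window held none of the 4 motifs. Over all 35116 promoter windows, 45.0% held a GC box, 34.6% a CCAAT box, 11.5% a TATA box and 7.71% an AP-1 site. In the 40 windows of the 32 named genes found in the promoter table, 30 held a GC box, 14 a CCAAT box, 4 a TATA box and 2 an AP-1 site. These are not the same 32 genes as those with a probe set. They include LAMA3, COL17A1 and DAG1 and lack LAMA1, LAMC3 and AGRN. The GC content was 76.7% for COL4A1, 77.7% for COL4A2, 78.3% for PXDN, 74.7% for NID1 and 51.3% for LAMA4, against a median of 58.7% over all windows. A match is a description of the letters and shows no binding.

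Fusion and vector tumors were then compared gene by gene, to ask which basement membrane transcripts differ in tumors whose cells carry the fusion. The collagen IV chain COL4A1 was 2.25-fold lower in fusion than in vector tumors, the cross-linking enzyme PXDN 2.04-fold, the collagen IV chain COL4A2 1.93-fold and the linker NID1 1.65-fold. The other collagen IV chains had log2 fold changes from -0.27 to 0.17. The laminin chain LAMA4 was 2.44-fold higher in fusion tumors and LAMC3 1.26-fold higher. None of the 25 tested members passed an adjusted p of 0.05 by limma, where 10 of 13694 genes (0.0730%) did, 0.0584% higher and 0.0146% lower, and the smallest adjusted p among the members was 0.127, for COL4A2. At an unadjusted p below 0.05 there were 6 members (24%), against 5.89% of all genes tested. Of these, 2 were higher, against 3.16% of all genes, and 4 were lower, against 2.73% of all genes.

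The median log2 fold change (fusion minus vector) of the 25 tested members was 0.04, against 0.00 over all genes tested, with 16 members above 0 and 9 below. Over all 32 it was 0.02. The groups did not overlap in 9 members (36%), against 11.7% of all genes tested. The fusion tumors were the higher ones in 4 of them, against 5.94% of all genes tested, and the lower ones in 5, against 5.74%. These were the 6 above with LAMA2, NTN4 and BCAM. NTN4 passed the limit for dim probe sets only through its fusion tumors (mean 5.07), as its mean in vector tumors, 4.82, was below it. For each of the 9 the exact two-sided permutation test over tumors gave p = 0.1, the smallest value that 3 against 3 tumors allow.

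**Figure D1:**
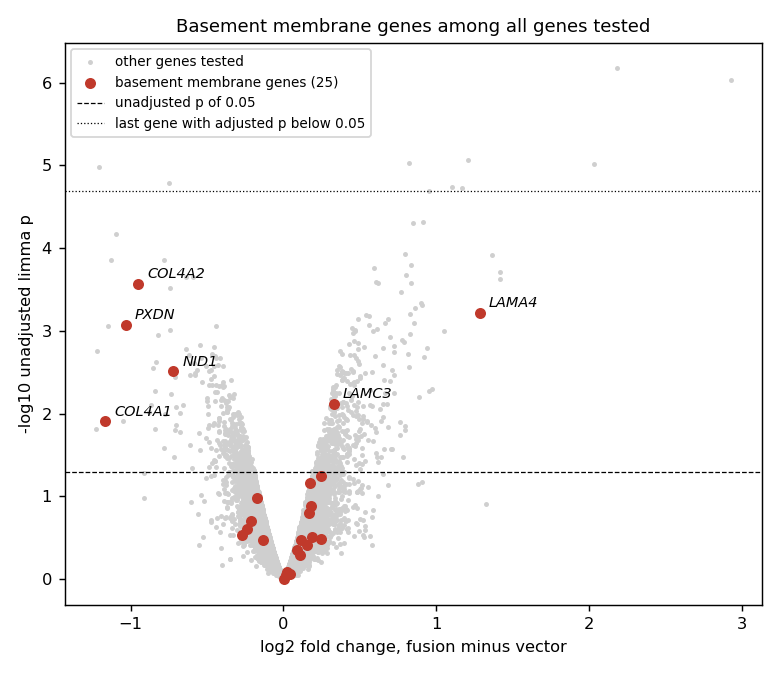
Each point is a gene, with its log2 fold change (fusion minus vector) on the horizontal axis and the -log10 of its unadjusted limma p on the vertical axis. The 25 basement membrane genes tested are red, and the 6 above the dashed line at 0.05 are named. None reaches the dotted line of the last gene with an adjusted p below 0.05.

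COL4A1 and COL4A2 encode the chains of the commonest collagen IV trimer. COL4A1 had levels of 5.68, 7.19 and 6.97 in fusion tumors 1 to 3, against 7.43, 8.17 and 7.74 in vector tumors 1 to 3. All 3 fusion tumors were below all 3 vector tumors, and fusion tumor 1 was far below the other 2 of its group. The means were 6.61 ± 0.82 (SD, 3 fusion tumors) and 7.78 ± 0.37 (SD, 3 vector tumors), a log2 fold change of -1.17 (SE 0.37, 95% interval -2.01 to -0.33, unadjusted p = 0.0123, adjusted p = 0.614 by limma). Without fusion tumor 1 the log2 fold change of COL4A1 was -0.70 (SE 0.21, limma unadjusted p = 0.0139), so that tumor moved its size by over 1.5 times.

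COL4A2 had levels of 6.14, 6.50 and 6.47 in fusion tumors, against 7.28, 7.61 and 7.07 in vector tumors. Its groups were further apart than their own spread, with means of 6.37 ± 0.20 (SD, 3 fusion tumors) and 7.32 ± 0.28 (SD, 3 vector tumors). The log2 fold change was -0.95 (SE 0.16, 95% interval -1.31 to -0.59, unadjusted p = 0.000269, adjusted p = 0.127 by limma). The fusion tumors had the same order in both genes, with tumor 1 the lowest and tumor 2 the highest. Among vector tumors, tumor 1 was the lowest for COL4A1 and tumor 3 for COL4A2.

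The probe sets of both genes differed in size. For COL4A1 the other 2 probe sets had log2 fold changes of -0.62 and 0.08, the second of them dim (mean 4.72). For COL4A2 they were -0.38 and -0.11. Averaged over probe sets the log2 fold change was -0.57 for COL4A1 (limma unadjusted p = 0.00230, adjusted p = 0.349) and -0.48 for COL4A2 (limma unadjusted p = 0.000408, adjusted p = 0.149).

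The other 4 collagen IV genes also form head to head pairs, COL4A3 with COL4A4 and COL4A5 with COL4A6, with starts 419 and 380 bases apart. Their chains form the collagen IV of kidney glomeruli, lung, skin and smooth muscle. COL4A5 had levels of 8.44, 8.73 and 8.93 in fusion tumors, against 8.38, 9.20 and 9.34 in vector tumors. The groups overlapped because vector tumor 1 was the lowest of all 6, and the log2 fold change was -0.27 (SE 0.24, 95% interval -0.83 to 0.29, limma adjusted p = 0.963). Without vector tumor 1 it was -0.57 (SE 0.14, limma unadjusted p = 0.00408, adjusted p = 0.230). COL4A6 had a log2 fold change of 0.17 (95% interval -0.08 to 0.42), and 6 further probe sets of it lay between -0.11 and 0.06. COL4A3 and COL4A4 were dim, at -0.16 and 0.02.

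PXDN encodes peroxidasin, a secreted peroxidase that makes the sulfilimine cross-links between collagen IV trimers. It had levels of 7.00, 7.78 and 7.34 in fusion tumors, against 8.11, 8.60 and 8.49 in vector tumors. Every fusion tumor was below every vector tumor, with means of 7.37 ± 0.39 (SD, 3 fusion tumors) and 8.40 ± 0.26 (SD, 3 vector tumors). The log2 fold change was -1.03 (SE 0.20, 95% interval -1.49 to -0.56, unadjusted p = 0.000841, adjusted p = 0.254 by limma). A second probe set of PXDN gave 6.18, 6.63 and 6.53 in fusion tumors, against 7.56, 7.68 and 7.41 in vector tumors, a log2 fold change of -1.11. Both probe sets thus had the same sign and nearly the same size.

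NID1 encodes nidogen, which binds the laminin gamma chain and collagen IV and so joins both networks. It had levels of 11.38, 11.52 and 11.14 in fusion tumors, against 11.69, 12.15 and 12.35 in vector tumors. The lowest vector tumor, number 1, was close to the highest fusion tumor. The means were 11.34 ± 0.19 (SD, 3 fusion tumors) and 12.06 ± 0.34 (SD, 3 vector tumors), a log2 fold change of -0.72 (SE 0.18, 95% interval -1.12 to -0.32, unadjusted p = 0.00307, adjusted p = 0.376 by limma). Its other 2 probe sets were lower too, at -0.63 and -0.37, and in all 3 the groups did not overlap. In the fit without vector tumor 1, which called 37 of 13694 genes against 10 with all tumors, NID1 passed the threshold. Its log2 fold change there was -0.91 (limma adjusted p = 0.0440). NID2, its paralog, was dim (mean 4.12) and had a log2 fold change of 0.03.

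**Figure D2:**
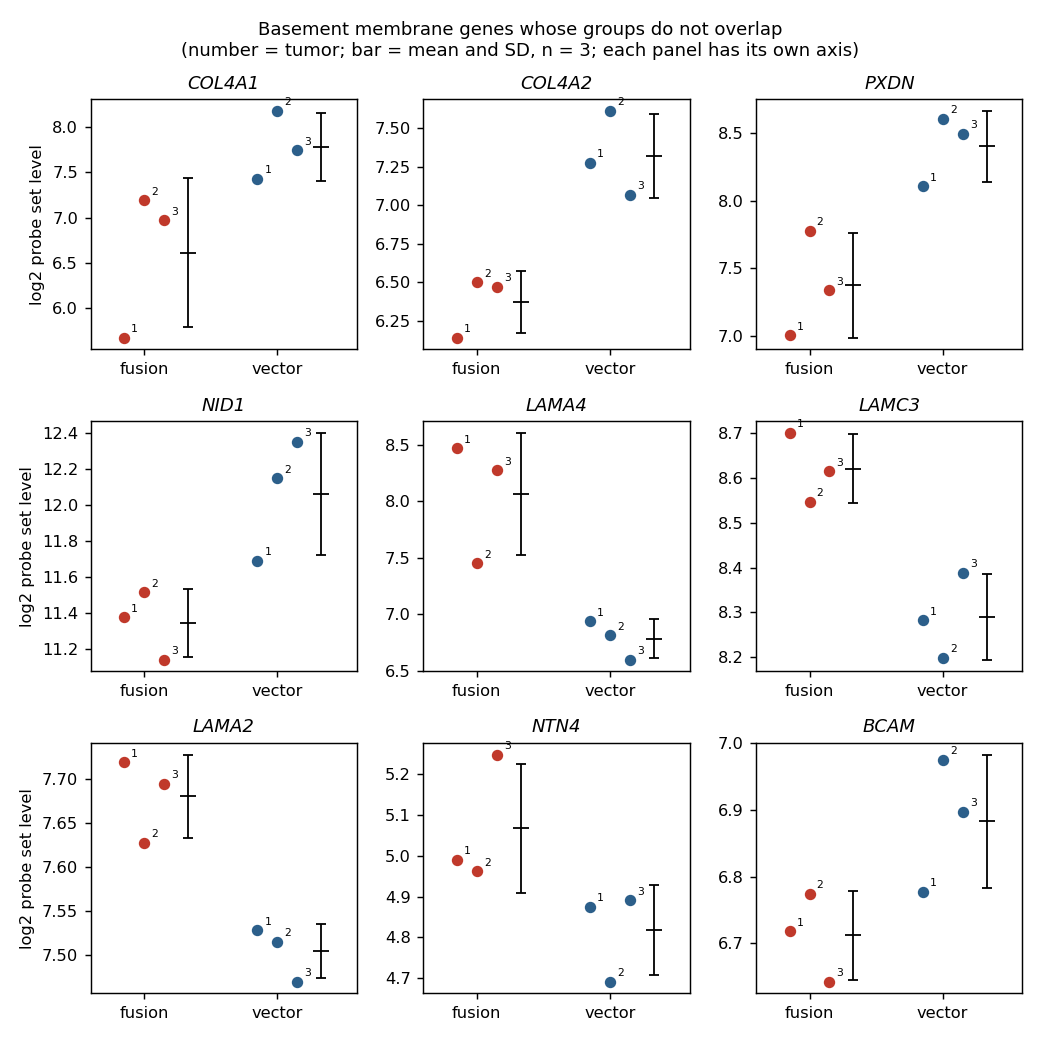
Log2 probe set levels of the 9 basement membrane genes whose groups do not overlap, with fusion tumors on the left and vector tumors on the right of each panel. Points are tumors, numbered, and bars are the mean and SD of 3 tumors. COL4A1 in fusion tumor 1 (5.68) lies apart from the other fusion tumors, and LAMA4 in fusion tumor 2 (7.45) lies nearest to the vector tumors.

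Among laminin alpha chains, LAMA4 had the widest difference. Its product is the alpha chain of laminins around vessels, fat cells and muscle, and is also made by mesenchymal cells. LAMA4 had levels of 8.47, 7.45 and 8.28 in fusion tumors, against 6.94, 6.81 and 6.60 in vector tumors. Every fusion tumor was above every vector tumor, and fusion tumor 2 was the lowest of its group. The means were 8.07 ± 0.54 (SD, 3 fusion tumors) and 6.78 ± 0.17 (SD, 3 vector tumors), a log2 fold change of 1.28 (SE 0.24, 95% interval 0.73 to 1.84, unadjusted p = 0.000604, adjusted p = 0.236 by limma).

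When fusion tumor 2 was left out, 3 of 13694 genes passed the threshold, among them LAMA4 (log2 fold change 1.59, limma adjusted p = 0.0434). Without fusion tumor 3 LAMA4 had a log2 fold change of 1.18 (limma adjusted p = 0.962). Of its 3 other probe sets, 2 had smaller log2 fold changes (0.44 and 0.37), both with groups that did not overlap. The last was dim (mean 3.39) and lay at -0.04. Averaged over its 4 probe sets, the log2 fold change of LAMA4 was 0.51 (limma unadjusted p = 0.000997, adjusted p = 0.232).

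LAMA2, the alpha chain of muscle and nerve laminin, had levels of 7.72, 7.63 and 7.69 in fusion tumors, against 7.53, 7.52 and 7.47 in vector tumors. The gap was small but wider than the spread within either group (log2 fold change 0.18, 95% interval -0.02 to 0.37, limma adjusted p = 0.898). LAMA5, the main alpha chain of adult epithelia, had levels of 9.37, 9.61 and 9.49 in fusion tumors, against 8.83, 9.82 and 9.70 in vector tumors. Here vector tumor 1 was the lowest and the other vector tumors the highest of the 6, and the log2 fold change was 0.04 (95% interval -0.49 to 0.58). Without vector tumor 1 it was -0.27 (limma unadjusted p = 0.0303, adjusted p = 0.488). LAMA1, the alpha chain of early embryos, was dim and stood at 0.06.

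The laminin beta chains lay near 0. LAMB1, a widely expressed beta chain, had levels of 7.87, 8.44 and 8.15 in fusion tumors, against 8.02, 8.24 and 7.89 in vector tumors (log2 fold change 0.11, 95% interval -0.25 to 0.47). LAMB3, the beta chain of the laminin that anchors stratified epithelium, had levels of 5.74, 5.75 and 5.70 in fusion tumors, against 5.74, 5.39 and 5.71 in vector tumors (0.12, 95% interval -0.14 to 0.37). Only vector tumor 2 was set off from the others in LAMB3. LAMB2, the beta chain of glomeruli and of nerve to muscle synapses, was at 0.15 (95% interval -0.23 to 0.54) and LAMB4 at 0.02 (95% interval -0.18 to 0.22).

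Of the gamma chains, LAMC1, which most laminins contain, had levels of 10.75, 10.79 and 10.79 in fusion tumors, against 10.63, 10.91 and 10.75 in vector tumors. The groups overlapped, and the 95% interval of its log2 fold change (0.01) ran from -0.21 to 0.24. LAMC3, a gamma chain of more restricted expression, had levels of 8.70, 8.55 and 8.62 in fusion tumors, against 8.28, 8.20 and 8.39 in vector tumors. All fusion tumors were above all vector tumors, by a log2 fold change of 0.33 (SE 0.095, 95% interval 0.11 to 0.55, unadjusted p = 0.00757, adjusted p = 0.523 by limma). LAMC3 had a single probe set.

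The bridging proteoglycans were not set off. HSPG2 (perlecan) had a log2 fold change of 0.09 (95% interval -0.17 to 0.35). AGRN (agrin), which binds laminin, stood at 10.36, 10.46 and 10.51 in fusion tumors, against 9.57, 10.46 and 10.57 in vector tumors. Its log2 fold change of 0.25 (95% interval -0.29 to 0.78) rested on vector tumor 1 and was -0.07 without it.

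The remaining collagens, linkers and receptors had small differences, none at an unadjusted p below 0.05. COL18A1, the precursor of endostatin, was at 0.18 and COL15A1, its relative, was dim at -0.06. COL7A1, which forms the anchoring fibrils under skin and mucosa, was at -0.21 with all tumors and at -0.36 without vector tumor 1 (limma unadjusted p = 0.0183, adjusted p = 0.417). The fibulins FBLN1 and FBLN2, which bind nidogen and laminin, were at 0.00 and -0.13. The calcium binding proteins SMOC1 and SMOC2 were at 0.19 and -0.10, and SMOC2 was dim.

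FREM2, which forms a complex with FRAS1 under embryonic epithelia, had levels of 6.41, 6.65 and 6.81 in fusion tumors, against 6.42, 7.08 and 7.08 in vector tumors. Its log2 fold change was -0.24 (95% interval -0.67 to 0.20), and -0.46 without vector tumor 1 (limma unadjusted p = 0.00571, adjusted p = 0.264). FRAS1 was dim, at -0.07. NTN4, a netrin that binds laminin gamma chains and can disrupt the laminin network, had levels of 4.99, 4.96 and 5.25 in fusion tumors, against 4.87, 4.69 and 4.89 in vector tumors. All of these values are close to the limit for dim probe sets, and those of every vector tumor are below it. The log2 fold change was 0.25 (limma unadjusted p = 0.0559, adjusted p = 0.864). BCAM, a cell surface receptor for the LAMA5 chain, had levels of 6.72, 6.77 and 6.64 in fusion tumors, against 6.78, 6.98 and 6.90 in vector tumors. The highest fusion tumor and the lowest vector tumor were almost level (log2 fold change -0.17, limma unadjusted p = 0.104, adjusted p = 0.942).

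**Figure D3:**
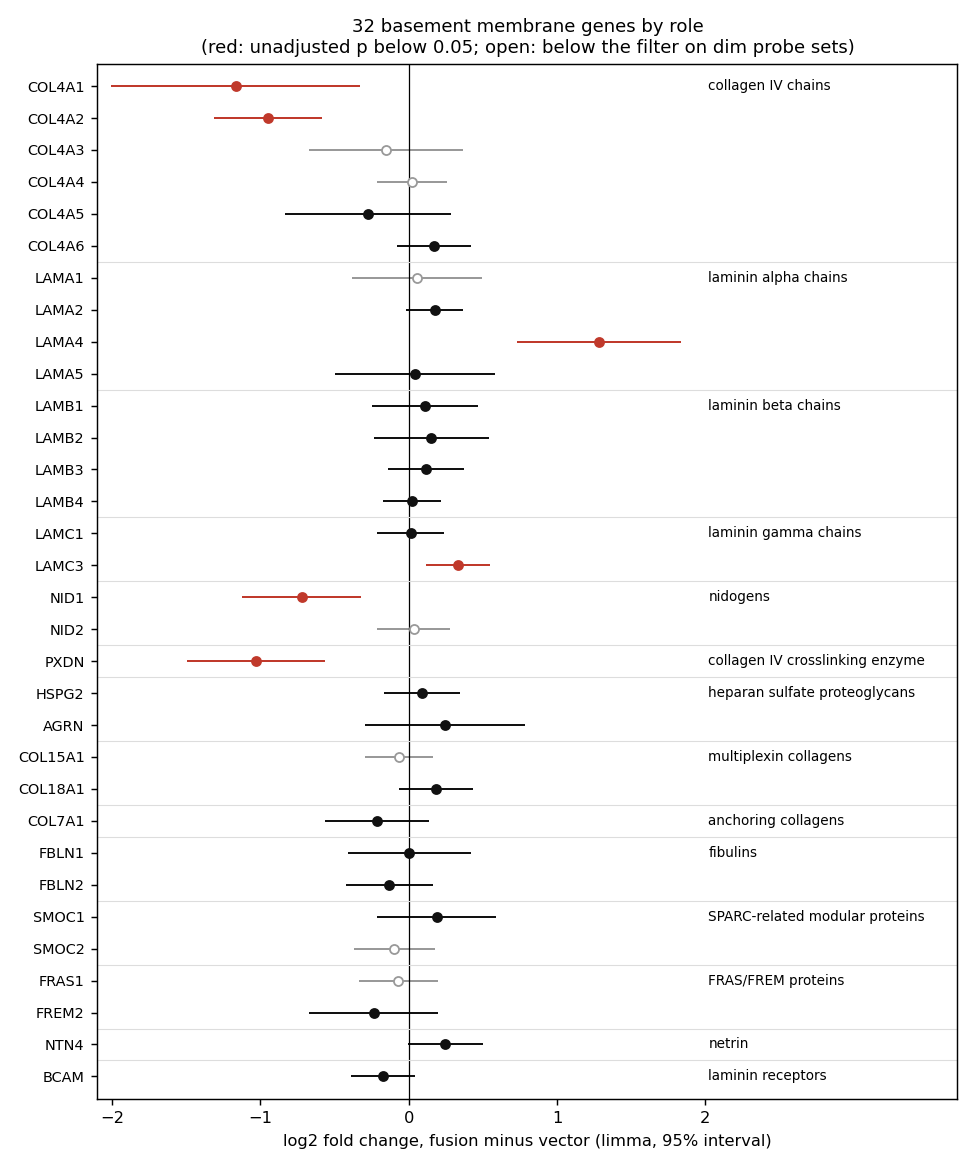
Log2 fold changes (fusion minus vector) of the 32 basement membrane genes, grouped by role, with limma's 95% intervals. The 6 genes with an unadjusted p below 0.05 are red, and the 7 dim genes are open grey circles. COL4A1, COL4A2, NID1 and PXDN lie left of 0 and LAMA4 and LAMC3 right of it.

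In all, 81 probe sets named one of the 32 genes, and 26 genes had more than 1. In 16 of these the probe sets differed in sign. The 6 genes at an unadjusted p below 0.05 had 16 probe sets, of which 14 had the sign of the chosen one and 13 had groups that did not overlap. These counts include the 6 chosen probe sets, which have their own sign by definition and were already known to separate the groups. The same shares over all probe sets were not computed here. PXDN and NID1 were the genes in which every probe set separated the groups among those with more than 1.

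**Figure D4:**
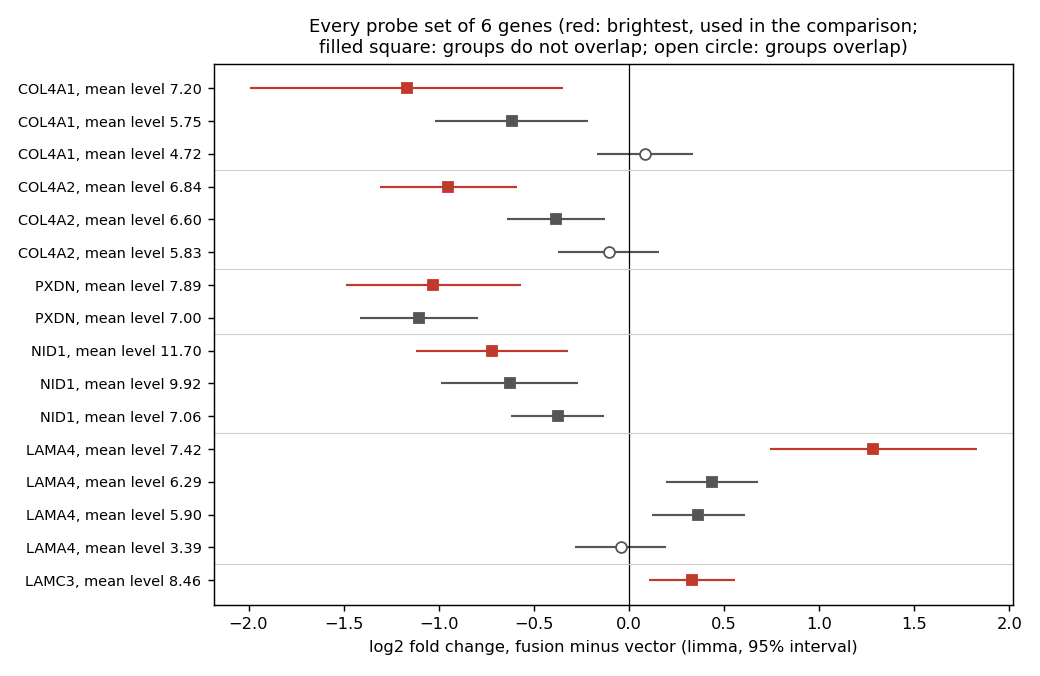
Log2 fold change (fusion minus vector) and 95% interval of each of the 16 probe sets of the 6 genes, ordered by mean level within a gene. Red marks the probe set with the highest mean, filled squares have groups that do not overlap and open circles have groups that overlap. The dimmer probe sets of COL4A1, COL4A2 and LAMA4 lie closer to 0.

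Leaving out any single tumor could not turn the sign of the 6 genes, because their groups did not overlap. The unadjusted limma p stayed below 0.05 in each, but the genes had been picked by that p with all tumors. The log2 fold change ranged over these 6 fits from -1.46 to -0.70 for COL4A1, from -1.08 to -0.80 for COL4A2 and from -1.23 to -0.84 for PXDN. It ranged from -0.91 to -0.58 for NID1, from 1.08 to 1.59 for LAMA4 and from 0.29 to 0.38 for LAMC3. Without vector tumor 1, 12 members had an unadjusted p below 0.05, of which 3 were higher and 9 lower. Over all genes tested that fit gave 605 higher and 654 lower.

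**Figure D5:**
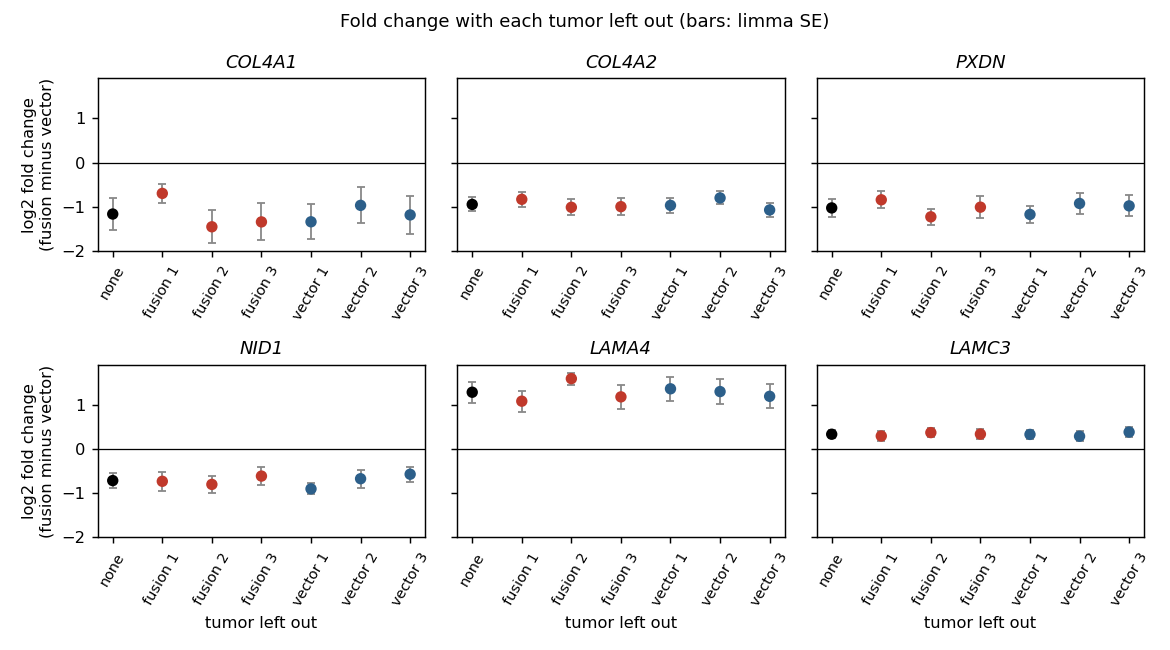
Log2 fold change (fusion minus vector) with all 6 tumors (black) and with each fusion (red) or vector (blue) tumor left out, with limma's SE as bars. COL4A1 moves most when fusion tumor 1 is left out, to -0.70, and LAMA4 most when fusion tumor 2 is left out, to 1.59.

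Genes that act on the basement membrane were described by lists of 4 kinds. Of 11 tested genes of basement membrane degradation, 1 passed the threshold, higher in fusion tumors: MMP10, a stromelysin that cleaves laminin and collagen IV. It had levels of 7.14, 7.21 and 6.85 in fusion tumors, against 4.81, 5.22 and 4.61 in vector tumors (log2 fold change 2.18, 95% interval 1.81 to 2.56, limma adjusted p = 0.00629). The vector mean of MMP10, 4.88, was below the limit for dim probe sets, so it entered the test only through its fusion tumors. The lysosomal protease CTSL (0.92, limma adjusted p = 0.337) and the membrane bound MMP14 (0.55, limma adjusted p = 0.614) did not pass. At an unadjusted p below 0.05 there were 4 higher, these 3 and HTRA1 (0.36), and 0 lower, against 3.16% higher and 2.73% lower over all genes tested. In that list 10 of 11 were above 0, against 6955 of 13694 over all genes tested, with a median of 0.23, against 0.00. The 10 include MMP10, and MMP2 (0.0017) and HPSE (0.0065) were barely above 0. The list was chosen with earlier results of these data known, so its counts and median are a description.

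Of 10 tested receptors for laminin and collagen, 0 passed by limma. ITGA6, an integrin chain that binds laminin, had levels of 12.04, 12.05 and 11.98 in fusion tumors, against 10.95, 11.43 and 11.30 in vector tumors (log2 fold change 0.80, SE 0.13, unadjusted p = 0.000213, adjusted p = 0.127 by limma). The collagen receptors ITGA2 and DDR1 were at -0.42 and -0.35, with limma adjusted p of 0.601 and 0.848. At an unadjusted p below 0.05 there were 1 higher and 1 lower, against 3.16% higher and 2.73% lower over all genes tested.

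Of 17 tested genes for processing and secretion of these proteins, 0 passed by limma. Of them, 2 were higher at an unadjusted p below 0.05, against 3.16% of all genes tested. P3H2, a prolyl hydroxylase that acts on collagen IV, had levels of 11.63, 11.58 and 11.65 in fusion tumors, against 11.36, 10.99 and 11.02 in vector tumors (log2 fold change 0.49, limma adjusted p = 0.376). LOXL2, an oxidase that also cross-links collagen IV, was at 0.29 (limma adjusted p = 0.788) and the export factor MIA3 at -0.13. The list's median was 0.00. Of 8 other tested basement membrane components, 0 passed by limma, and their median was -0.05. MATN2 at -0.34, VWA1 at -0.20 and SPARC at 0.20 were the nearest by p. In this list 1 was lower at an unadjusted p below 0.05, against 2.73% of all genes tested.

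Markers of cells that build basement membranes were set beside these values, as levels averaged over each list on the log2 scale. For 10 endothelial markers the average was 5.45 to 5.54 in fusion tumors and 5.40 to 5.51 in vector tumors, with 0 of 7 tested at an unadjusted p below 0.05, and TEK, CLDN5 and EMCN dim. Over all genes tested, 3.16% were higher and 2.73% lower at that p. For 12 fibroblast and mural cell markers it was 6.62 to 6.69 in fusion tumors and 6.41 to 6.53 in vector tumors, with 4 of 9 tested higher at an unadjusted p below 0.05 and DCN, LUM and CSPG4 dim. For 7 adipocyte markers it was 5.34 to 5.42 in fusion tumors and 5.51 to 5.67 in vector tumors, with 3 of 5 tested lower at an unadjusted p below 0.05 and FABP4 and LEP dim. For 7 skeletal muscle markers the average was 5.74 to 6.14 in fusion tumors and 5.87 to 6.35 in vector tumors, with 0 of 5 tested at an unadjusted p below 0.05 and MYH2 and MYH7 dim. For 8 leukocyte markers it was 5.03 to 5.08 in fusion tumors and 4.93 to 4.98 in vector tumors, with 1 of 4 tested, CD68, higher at an unadjusted p below 0.05 and PTPRC, CD14, LYZ and CD163 dim. The fibroblast, adipocyte and leukocyte averages thus separated the groups, as did the squamous one with SOX2 but not without it. In the fibroblast and mural list the 4 higher were FAP, COL1A1, THY1 and COL1A2 (log2 fold changes 0.91, 0.65, 0.36 and 0.24). The others ranged from -0.15 for PDGFRA and -0.13 for ACTA2 to 0.20 for COL3A1. RGS5, PDGFRB and CSPG4 were at -0.02, 0.02 and -0.07. PDGFRA had a mean level of 13.09 and THY1 one of 10.75, against 5.34 for COL1A2, and which cells gave this signal was not tested. In the leukocyte list CD68 was at a log2 fold change of 0.80, against 0.17 for CSF1R, 0.06 for LAPTM5 and 0.02 for ITGAM. Its dim markers lay from -0.19 to -0.02. The leukocyte average was not recomputed without CD68, so its separation is not shown for the list without that marker. The part of these cell types in the members' differences was not tested.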

How the data were processed

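The authors deposited log2 probe set levels in a single table, 1 column per tumor. Their scale was inferred from their range; how the arrays were background corrected, normalized and summarised was not stated in the labels. Per the labels' protocols, Trizol RNA was biotin labelled by Affymetrix standard procedures. No detection call was used, so the number of arrays and an unknown background limit precision. Groups and replicate numbers came from sample titles.

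Of 49293 probe sets, 44988 named 1 gene, 1832 several and 2473 none in the platform annotation. Per gene the probe set with the highest mean was kept (18132 genes), and 4438 genes with a mean below the 30th percentile were left out. The group difference was fitted in R 4.3.3 with limma 3.58.1 (eBayes, two-sided, Benjamini-Hochberg over 13694 genes, threshold 0.05). Folds of dim members come from the fit with no filter, and those of single probe sets from a fit over all probe sets naming 1 gene. The model was tested on simulated data. Members and gene lists were chosen with earlier results of these data known, and no set test was run. Every member was named, with values per tumor at an unadjusted p below 0.05, for groups that did not overlap and for COL4A1, COL4A2, LAMB3, LAMA5, LAMB1 and LAMC1. The text also gives values per tumor for COL4A5, AGRN and FREM2. It names HTRA1, MMP2, HPSE, SOX2, the leukocyte markers and the fibroblast and mural markers with fold changes or levels. All of these were chosen after their values were seen. From each pathway list the 3 genes with the smallest p were named. Promoters came from RefSeq (GRCh38.p14). Python 3.11.15 with matplotlib 3.10.9 drew the figures.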

Additional observations from a re-analysis of the deposited data

How the results depend on the processing

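Results were recomputed with no filter and with a filter at the 50th percentile, and with the mean or the most variable of a gene's probe sets. Other fits used array weights, a block for replicate number, quantile normalization, median centring, or a robust fit with a variance trend, and each tumor was left out in turn. The count of members past the adjusted threshold stayed at 0 in all of them, and at an adjusted p below 0.1, except with array weights (4: COL4A2, PXDN and NID1 lower, LAMA4 higher) and when a tumor was left out (0 to 1). The count at an unadjusted p below 0.05 was 13 with array weights, 6 to 12 when a tumor was left out and 6 to 7 otherwise. Over all genes tested, array weights gave 886 higher and 964 lower at that p, against 433 and 374 without them. Array weights called 140 of all genes tested, against 10 without them. Without fusion tumor 1 limma called 0 genes over all, with 374 higher and 295 lower at an unadjusted p below 0.05. The median over the members stayed between 0.01 and 0.10 with all tumors, and between -0.02 and 0.08 when a tumor was left out. COL4A1, COL4A2, PXDN, NID1, LAMA4 and LAMC3 kept their sign in all 15 alternatives. Where a tumor was left out or arrays were weighted, this was fixed in advance because their groups did not overlap. The changed filters, the block and the robust fit left their fold changes as they were, so no sign could turn there either. Only the changed normalizations and, for genes with more than 1 probe set, the changed choice of probe sets could turn a sign. Over all 15 alternatives the highest limma adjusted p was 1.00 for COL4A1, 0.592 for COL4A2, 0.999 for PXDN, 1.00 for NID1, 0.962 for LAMA4 and 1.00 for LAMC3.

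The sign turned for 8 members, none of which had an unadjusted p below 0.05 in the comparison reported above. Array weights gave LAMA5 -0.22, LAMB2 -0.0083 and LAMC1 -0.057, median centring gave LAMB4 -0.0075, LAMC1 -0.015 and FBLN1 -0.025, and quantile normalization gave LAMB4 -0.0046 and FBLN1 -0.015. With a tumor left out, LAMA5 ranged from -0.27 to 0.23, LAMB1 from -0.035 to 0.25, LAMB2 from -0.033 to 0.28, LAMC1 from -0.053 to 0.087, HSPG2 from -0.017 to 0.17, AGRN from -0.070 to 0.43 and FBLN1 from -0.11 to 0.18. The cause of these changes was not tested.

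With the replicate number as a block, 0 members passed and 7 had an unadjusted p below 0.05, of which 3 were higher and 4 lower. Over all genes tested that fit gave 500 higher and 410 lower at that p. PXDN was nearest to the adjusted threshold (limma adjusted p = 0.0513), while 8 of all genes passed it. Deviations of tumors with the same number correlated at 0.0970, 0.174 and 0.0507 over all genes tested, and each tumor correlated best with its own number, but the labels give no pairing. Signal over background was not known, which limits the dim members most.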
